A study of Mus musculus with 27 samples.

Results

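The 10 genes described here are Ucp1, Cidea, Elovl3, Cox8b, Pck1, Fabp4, Cd36, Adipoq, Plin1 and Ces1d, all known from adipocytes and several of them from brown fat in particular. They were picked by name from a table of 55367 gene symbols in mouse dorsal root ganglia because earlier results on these libraries showed them high in knockout ganglia after sham surgery. All 10 passed the filter on low counts, as did 18517 genes in all. Their levels in the contrasts that picked them (genotype after sham surgery, injury in the knockout and the difference between both) are therefore given as a description without a test.

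Polyadenylated RNA was sequenced in 15 bulk libraries of L4-L5 dorsal root ganglia, where the sensory neurons that feed the sciatic nerve have their somata, with 3 libraries in each of 5 groups. Wild-type mice had sham surgery, sciatic nerve injury, or sciatic nerve injury with RU521, and Ptpn2 knockout mice had sham surgery or sciatic nerve injury. RU521, an inhibitor of the cytosolic DNA sensor cGAS, was given at the nerve, and Ptpn2 encodes a tyrosine phosphatase that restrains JAK-STAT signalling. Injured samples were taken 3 days after injury. The labels do not give the Cre driver of the knockout, the strain, age and sex of the mice, whether a library is 1 animal or a pool, or the time of the sham samples, and no group had RU521 without injury. In titles the sham groups are called intact, and the series text speaks of nerve rather than ganglion tissue. The other 12 samples of the series are picked retinal ganglion cells, wild-type or knockout, each with PBS or IFNγ. They were taken 3 days after injury, with vector given 2 weeks before the injury.

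Brown adipocytes hold many small lipid droplets and mitochondria whose inner membrane carries UCP1, a protein that lets protons leak back so that fuel oxidation yields heat. Sympathetic nerve endings switch this on through beta-adrenergic receptors, which raise lipolysis and the transcription of Ucp1. White adipocytes store lipid in a single large droplet and share with brown ones the droplet coat, fatty acid uptake and adiponectin secretion, but hold little UCP1. Brown fat depots lie mostly between and around the shoulder blades and along the aorta and upper spine, and fat also surrounds nerves and spinal ganglia.

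The libraries held 14813365 to 22414750 counts, and levels are given as CPM, which are counts scaled to library size with TMM factors between libraries between libraries. A level under 3 counts, which is 0.131 to 0.208 CPM, was taken as under the detection floor. All 11 sensory neuron markers and all 7 satellite glia markers reached 3 counts in every sham library, as the tissue label has it. Wild-type sham replicates 1 and 3 stood apart from the rest, with 26235 and 26802 detected genes (other libraries 28803 to 34340) and 4.87% and 6.52% mitochondrial counts (others 7.83% to 18.6%). Wild-type sham replicate 2 held 6504 CPM of 18 summed skeletal muscle markers, against 42.4 to 768 CPM in the other libraries. The spread among wild-type sham libraries was wide for several of the genes below, and values are given with and without these libraries. Nothing in the labels says that replicates are separate animals, so p-values measure only the spread between libraries.

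Ucp1, on chromosome 8 (83290352 to 83298452, plus strand), separated knockout sham ganglia from every other library. It stood at 43.1, 72.8 and 81.5 CPM in knockout sham libraries and at 0.741, 0.0623 and 1.12 CPM in wild-type sham libraries. The low wild-type value rests on 1 count, in replicate 2. Injured ganglia held 0.671, 0.661 and 1.03 CPM in wild type, 9.83, 5.35 and 2.25 CPM in the knockout and 0.713, 1.01 and 1.31 CPM with RU521. No knockout library of either surgery overlapped a wild-type library. The order of the group means was knockout sham (65.8 ± 20.2 CPM), knockout injured (5.81 ± 3.81), RU521 (1.01 ± 0.30), wild-type injured (0.788 ± 0.211) and wild-type sham (0.642 ± 0.537, SD, n = 3 each), and the last 3 groups overlapped one another. The knockout sham level was 6.62 ± 0.60 (SE) above wild-type sham on the log2 scale and the injured knockout lay 3.50 below the knockout sham level (log2 change -3.50 ± 0.49). In bulk tissue, fewer cells of a type and less RNA per cell cannot be told apart, for Ucp1 and for each gene that follows.

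**Figure D1:**
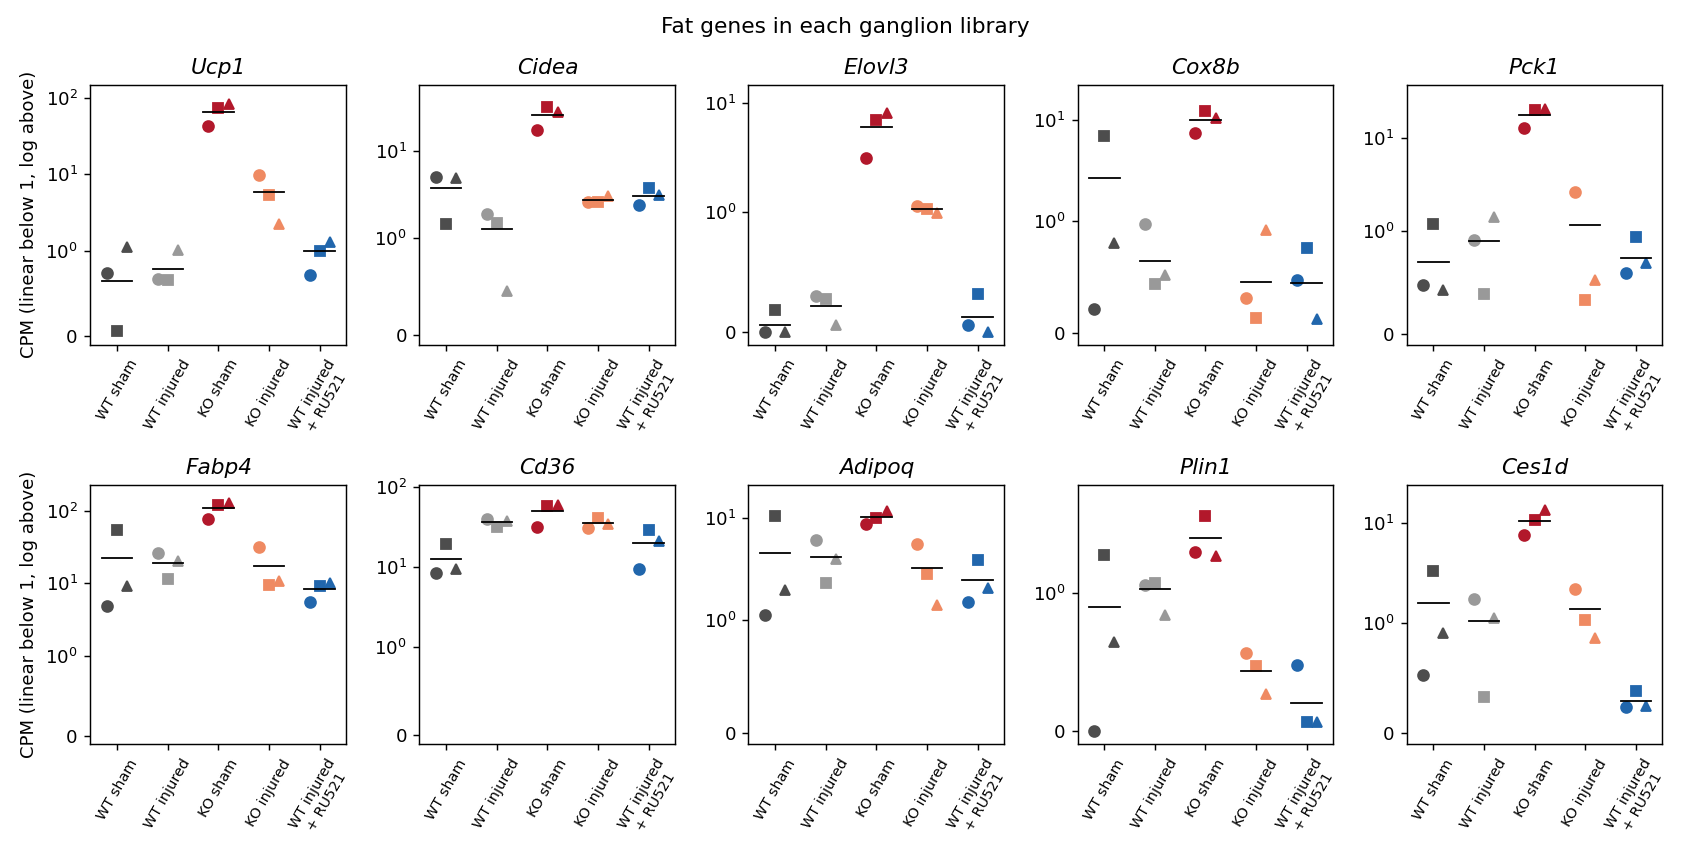
Levels of the 10 fat genes in CPM (y axis, linear below 1 and logarithmic above) in each ganglion library by group (x axis); circles, squares and triangles are replicates 1, 2 and 3 and the line is the group mean. Ucp1 lies at 43.1 to 81.5 CPM in knockout sham libraries and at 0.0623 to 9.83 CPM elsewhere, whereas Cd36, Adipoq and Plin1 of knockout sham libraries overlap other groups.

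Promoters of 4 of the genes are shown to set Ucp1 and Pck1, which differed most between sham genotypes among genes with an entry, beside Cd36 and Adipoq, whose knockout sham levels overlapped those of other groups. Sequences are from RefSeq on GRCm38.p6, 250 bases before to 50 bases after the listed start, 5′ to 3′, and capitals mark AGGTCA, the half-site bound by nuclear receptors such as PPARγ, on either strand.
Ucp1 promoter, chr8:83290098-83290397, plus strand: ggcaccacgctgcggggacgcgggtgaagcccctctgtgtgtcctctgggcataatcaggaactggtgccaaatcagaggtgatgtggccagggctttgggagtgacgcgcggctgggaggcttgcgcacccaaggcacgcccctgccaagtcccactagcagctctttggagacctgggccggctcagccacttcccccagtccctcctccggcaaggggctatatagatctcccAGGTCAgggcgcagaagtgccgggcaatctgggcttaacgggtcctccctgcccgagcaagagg
Pck1 promoter, chr2:173152823-173153122, plus strand: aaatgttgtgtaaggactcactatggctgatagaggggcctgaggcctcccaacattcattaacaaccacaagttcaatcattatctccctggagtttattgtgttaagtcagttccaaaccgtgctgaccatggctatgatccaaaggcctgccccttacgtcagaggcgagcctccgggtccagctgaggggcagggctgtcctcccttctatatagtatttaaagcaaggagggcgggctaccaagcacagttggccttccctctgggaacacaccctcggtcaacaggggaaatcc
Cd36 promoter, chr5:17835847-17836146, minus strand: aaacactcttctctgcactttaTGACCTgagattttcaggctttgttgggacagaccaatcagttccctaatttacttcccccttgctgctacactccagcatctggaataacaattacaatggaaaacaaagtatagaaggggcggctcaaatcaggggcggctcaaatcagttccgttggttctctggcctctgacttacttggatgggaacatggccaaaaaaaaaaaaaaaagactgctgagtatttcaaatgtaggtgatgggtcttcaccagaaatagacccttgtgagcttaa
Adipoq promoter, chr16:23146286-23146585, plus strand: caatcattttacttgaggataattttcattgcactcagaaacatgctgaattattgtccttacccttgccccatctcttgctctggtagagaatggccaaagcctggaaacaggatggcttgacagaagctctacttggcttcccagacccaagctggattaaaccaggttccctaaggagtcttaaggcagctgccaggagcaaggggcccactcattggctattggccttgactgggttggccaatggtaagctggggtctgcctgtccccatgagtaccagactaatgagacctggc

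Of the 10 genes, 6 had a promoter entry (the other 2 being Plin1 and Cox8b), and Cidea, Elovl3, Fabp4 and Ces1d had none. AGGTCA was present in 2 of the 6 windows, in Ucp1 at -14 and in Cd36 at -228 from the listed start, and in 16.3% of 32851 promoter windows of the same length. The Cd36 window lies inside the counted gene, whose 5′ end on the minus strand is at 17888801. Other Cd36 starts were not searched. The C/EBP pattern TTGCNNAA was found in Plin1 alone (10.8% of all windows), the TATA core TATAAA in Cox8b alone (13.6%), and the full cAMP response element TGACGTCA in none of the 6 (1.79%). All 4 patterns were searched on both strands. Ucp1 and Cd36, the pair with the half-site, had different patterns over the libraries, since Cd36 was also high in injured ganglia of both genotypes.

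Cidea, which encodes a lipid droplet protein abundant in brown fat, lies on chromosome 18 (67343604 to 67367785, plus strand). Its level was 17.4, 31.5 and 28.0 CPM in knockout sham libraries against 5.01, 1.43 and 4.81 CPM in wild-type sham libraries. Injured ganglia held 1.89, 1.49 and 0.451 CPM in wild type, 2.57, 2.61 and 3.04 CPM in the knockout and 2.38, 3.72 and 3.07 CPM with RU521. Every knockout sham library was above the other 12, and every wild-type injured library was below both the injured knockout and the RU521 libraries.

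Elovl3, an elongase of very long fatty acids that cold induces in brown fat, lies on chromosome 19 (46131897 to 46135694, plus strand). Knockout sham libraries held 3.11, 6.93 and 8.18 CPM, while wild-type sham libraries held 0, 0.187 and 0 CPM, 3 counts in all. The ratio of the groups was 115, with an exact 95% counting interval of 38.9 to 561 that covers counting error only. Injured knockout libraries held 1.13, 1.07 and 0.992 CPM, and the 6 injured wild-type libraries, with and without RU521, held 0 to 0.315 CPM. Elovl3 thus repeated the Ucp1 order, with knockout sham highest, injured knockout intermediate and all wild-type libraries lowest. It overlaps the antisense gene Pitx3 by 10 bp, and the counting used no strand.

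Cox8b encodes a subunit of cytochrome c oxidase found in brown fat and in striated muscle, and lies on chromosome 7 (140898945 to 140900446, minus strand). It stood at 7.42, 12.4 and 10.5 CPM in knockout sham libraries and at 0.218, 6.91 and 0.802 CPM in wild-type sham libraries. The 6.91 CPM belongs to replicate 2, the library with the high skeletal muscle markers, whose part in this value was not tested. Injured libraries of all 3 groups held 0.125 to 0.977 CPM. The knockout sham libraries were above all others, though by little over that 1 wild-type library, and the sham log2 difference was 1.96 with all libraries, 4.34 without wild-type sham replicate 2 and 0.58 against that replicate alone.

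Pck1 encodes cytosolic phosphoenolpyruvate carboxykinase, which in adipocytes supplies glycerol for fatty acid re-esterification, and lies on chromosome 2 (173153048 to 173159273, plus strand). Knockout sham libraries held 12.9, 20.1 and 20.7 CPM and wild-type sham libraries 0.479, 1.18 and 0.428 CPM. In injured knockout libraries it stood at 2.63, 0.335 and 0.529 CPM, so that only replicate 1 was above the 0.386 to 1.42 CPM of injured wild-type libraries with or without RU521. Unlike Ucp1, Pck1 in the other 2 injured knockout libraries lay at or near the wild-type range.

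Fabp4, Cd36, Adipoq and Plin1 are expressed in white and brown adipocytes alike, and Fabp4 and Cd36 in endothelial cells and macrophages as well. Fabp4, the cytosolic fatty acid carrier (chromosome 3, 10204088 to 10208576, minus strand), stood at 76.8, 119 and 127 CPM in knockout sham libraries and at 4.88, 53.8 and 9.09 CPM in wild-type sham libraries. Its injured libraries held 25.8, 11.5 and 20.3 CPM in wild type, 31.6, 9.30 and 10.7 CPM in the knockout and 5.53, 9.14 and 10 CPM with RU521. Again knockout sham was above the rest, with wild-type sham replicate 2 next.

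Cd36, a fatty acid uptake receptor (chromosome 5, 17781690 to 17888801, minus strand), stood at 31.5, 58.9 and 59.7 CPM in knockout sham libraries against 8.50, 19.4 and 9.51 CPM in wild-type sham libraries. Injured libraries held 39.9, 31.9 and 37.6 CPM in wild type, 30.9, 40.5 and 34.4 CPM in the knockout and 9.45, 29.1 and 21.3 CPM with RU521. Knockout sham replicate 1 thus lay within the range of injured ganglia.

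Adipoq, the hormone adiponectin (chromosome 16, 23146536 to 23158028, plus strand), had the smallest sham difference of the 10 with all libraries (log2 1.18, but 2.73 without wild-type sham replicate 2, when Cidea was at 2.39), with 8.79, 10.1 and 11.9 CPM in knockout and 1.13, 10.6 and 1.98 CPM in wild-type libraries. Injured libraries held 6.10, 2.31 and 4.0 CPM in wild type, 5.64, 2.81 and 1.39 CPM in the knockout and 1.49, 3.91 and 2.06 CPM with RU521. Wild-type sham replicate 2 was within the knockout sham range for Adipoq and within it for Plin1, but far below it for Ucp1.

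Plin1, the coat protein that gates lipolysis at the droplet (chromosome 7, 79720218 to 79732903, minus strand), stood at 2.15, 4.18 and 2.01 CPM in knockout sham libraries and at 0, 2.05 and 0.641 CPM in wild-type sham libraries. Injured libraries held 0.838 to 1.21 CPM in wild type, 0.264 to 0.564 CPM in the knockout and 0.0626 to 0.475 CPM with RU521. Ces1d, a carboxylesterase with triglyceride hydrolase activity (chromosome 8, 93166068 to 93197838, minus strand), stood at 7.60, 10.7 and 13.5 CPM against 0.523, 3.30 and 0.909 CPM in sham knockout and wild-type libraries. Its injured libraries held 0.331 to 1.71 CPM in wild type, 0.859 to 2.19 CPM in the knockout and 0.238 to 0.378 CPM with RU521, so that knockout sham libraries were above the other 12.

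Counted over the 10, all 3 knockout sham libraries were above the other 12 libraries for 7 genes, the exceptions being Cd36, Adipoq and Plin1, whereas 0.626% of all tested genes had this order. Knockout sham did not overlap wild-type sham for 8 genes (6.65% of tested genes were higher in this way), and injured knockout lay wholly below knockout sham for 9 (18.5%), all but Cd36. These counts follow from how the genes were picked. The median log2 difference between sham genotypes was 2.51 over the 10 genes and -0.04 over all tested genes, and the median injury difference in the knockout was -2.80 against -0.01. The sham and injury contrasts of the knockout share the knockout sham libraries.

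Per kilobase of exon, the order of mean levels in knockout sham ganglia was Ucp1 (40.2 CPM per kb), Cox8b (28.1), Fabp4 (23.9), Cidea (23.0), Cd36 (13.9), Adipoq (7.42), Pck1 (5.23), Ces1d (4.48), Elovl3 (3.08) and Plin1 (0.598). In wild-type sham ganglia, by contrast, Ucp1 stood at 0.392 CPM per kb, below Cox8b (7.34), Fabp4 (5.04), Cd36 (3.48), Cidea (3.36), Adipoq (3.32) and Ces1d (0.666). Ucp1 thus had the highest mean of the 10 in knockout sham ganglia and a lower mean than the genes just listed in wild-type sham ganglia.

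Within the knockout sham group, 9 of the 10 genes were lowest in replicate 1, Plin1 being lowest in replicate 3. Replicate 1 held 0.412 (Elovl3) to 0.801 (Adipoq) times the mean of the other 2 libraries. The ratio of counts to Ucp1 counts varied 1.11-fold (Cd36) to 1.39-fold (Elovl3) among the 3 libraries for 7 genes, 1.47-fold for Adipoq and 2.33-fold for Plin1.

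The share of Ucp1 relative to Adipoq, which both kinds of fat express, differed among groups more than Adipoq itself. There were 4.90, 7.21 and 6.88 Ucp1 counts per Adipoq count in knockout sham libraries and 1.74, 1.90 and 1.62 in injured knockout libraries. Wild-type libraries held 0.654, 0.00585 and 0.568 after sham surgery, 0.110, 0.286 and 0.258 after injury and 0.480, 0.258 and 0.636 with RU521. All 6 knockout libraries were above all 9 wild-type libraries. The exact 95% counting interval of the lowest knockout library, injured replicate 3, ran from 0.913 to 2.94, and that of the highest wild-type library, sham replicate 1, from 0.333 to 1.25. This ratio was chosen after its values were seen and has no test.

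**Figure D2:**
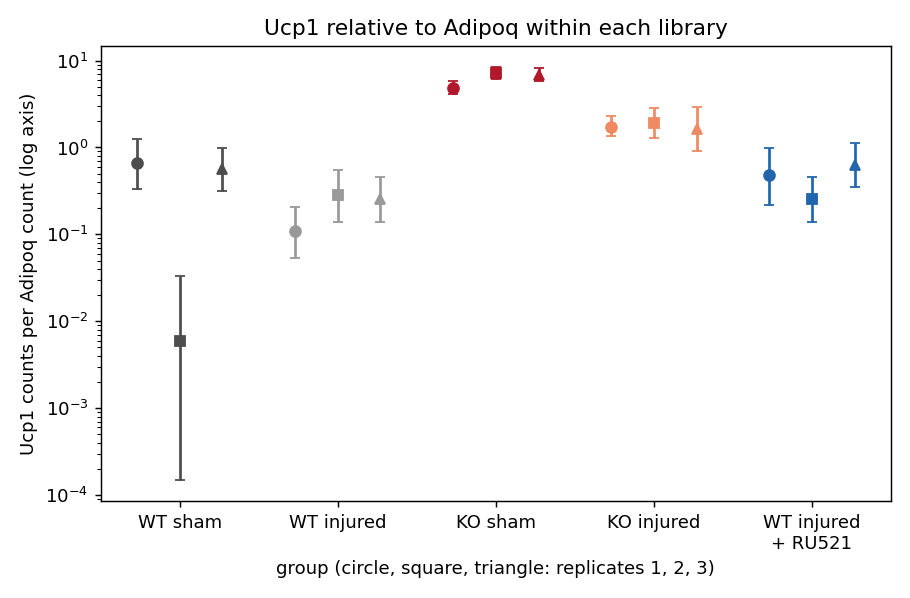
Ucp1 counts per Adipoq count (y axis, logarithmic) in each library by group (x axis), with exact 95% counting intervals as bars. Knockout sham libraries lie at 4.90 to 7.21, injured knockout libraries at 1.62 to 1.90 and wild-type libraries at 0.00585 to 0.654.

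Wild-type sham replicate 2 was nearest to knockout sham ganglia in Adipoq, with 171 counts (10.6 CPM) against a knockout sham mean of 10.2 CPM. It also held 53.8 CPM of Fabp4 and 2.05 CPM of Plin1, and 311 CPM of Car3, 116 CPM of the adipsin gene Cfd and 3.74 CPM of the resistin gene Retn. Knockout sham libraries held 24.3 to 55.5 CPM of Car3, 12.6 to 25.1 CPM of Cfd and 0.0598 to 1.61 CPM of Retn. The listed transcripts thus had different proportions in this library and in knockout sham ganglia. This library also held 6504 CPM of summed skeletal muscle markers, against 45 to 447 CPM in knockout sham libraries. The part of muscle in these values, Car3 among them, was not tested. Ucp1 was at 1 count and Elovl3 at 3 counts in wild-type sham replicate 2. Knockout sham means were 17.9 times its level for Cidea and 15.2 times for Pck1, but 1.99 times for Fabp4, 1.35 times for Plin1 and 0.963 times for Adipoq. When wild-type sham replicates 1 and 3 were left out, the sham log2 difference of Adipoq was -0.03 in place of 1.18, and that of Cidea was 4.18 in place of 2.76. The others were then 9.90 for Ucp1 and 4.99 for Elovl3 (against 1 and 3 counts), 3.94 for Pck1, 1.71 for Ces1d, 1.39 for Cd36, 1.02 for Fabp4, 0.58 for Cox8b and 0.47 for Plin1. With replicate 2 left out instead, Fabp4 was at 3.96, Ces1d at 3.9, Plin1 at 3.16 and Adipoq at 2.73.

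The other fat genes came from lists written with earlier results of these data known, 71 genes of brown, general and white adipocytes, of which 65 were tested. Between sham genotypes, 2 of them rose and none fell in edgeR's quasi-likelihood test (Benjamini-Hochberg adjusted p under 0.05), where 0.135% of all tested genes were called. Gpd1, the glycerol-3-phosphate dehydrogenase of triglyceride synthesis, rose from 64.8 ± 2.59 to 138 ± 26.7 CPM (SD, n = 3 each, log2 1.09 ± 0.18, edgeR adjusted p = 0.0288). Thrsp, a lipogenic regulator, rose from 39.8 ± 7.75 to 82.0 ± 12.2 CPM (log2 1.04 ± 0.16, edgeR adjusted p = 0.0171). In wild-type sham ganglia Gpd1 and Thrsp thus stood well above Adipoq, whose mean there was 4.59 CPM. Which cells the Gpd1 and Thrsp transcripts came from was not tested. At an unadjusted p under 0.05, 22 were higher and 2 lower, and DESeq2 called 11 higher and 1 lower. A fit of the sham groups alone called 0. Without wild-type sham replicates 1 and 3, 11 were called, but that wild-type arm is 1 library, assumed to vary like the other groups.

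In knockout sham libraries Lpl, the lipoprotein lipase, stood at 35.7, 55.8 and 51.9 CPM, and in wild-type sham libraries at 11.2, 28.9 and 9.94 CPM (log2 1.52 ± 0.32, edgeR adjusted p = 0.0807). Cidec, a droplet fusion protein, held 4.61, 5.32 and 7.83 CPM against 0.958, 2.49 and 0.855 CPM. In all, 14 of the 65 had every knockout sham library above the other 12 (0.626% of tested genes), among them Lpl, Cidec, Pnpla2, Dgat2, Agpat2, Gpd1, Thrsp, G0s2, Aqp7 and Pdk4.

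Ppargc1a, the coactivator of mitochondrial biogenesis, stood at 30.7, 33.9 and 33.8 CPM in knockout sham and 31.7, 24.5 and 26.8 CPM in wild-type sham libraries. Prdm16, a switch for brown fat fate, stood at 20.6, 16.2 and 20.2 CPM against 18.5, 17.2 and 19.5 CPM. Both are also expressed outside fat, and neither passed the test (edgeR adjusted p = 0.717 and 0.964).

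Dio2, the deiodinase that makes active thyroid hormone in brown fat, stood at 0.658, 1.43 and 2.36 CPM in knockout sham libraries. Wild-type sham libraries held 0.741 to 15.4 CPM, so the groups overlapped. The fitted difference was a fall that edgeR did not call (log2 -2.07 ± 0.79, unadjusted p = 0.0187, adjusted p = 0.435). Adrb3, the beta-adrenergic receptor of adipocytes, held 0.897 to 2.15 CPM against 0.107 to 0.934 CPM. Lhx8, Cpt1b and Fgf21 were below the filter on low counts. Over the 27 tested genes of the list of other brown fat genes, edgeR called 0 in sham ganglia (5 higher and 1 lower at an unadjusted p under 0.05, 2 higher with DESeq2), with a median log2 difference of 0.24. Of white fat genes, Lep was at 0, 0 and 0.0693 CPM in knockout sham libraries. The 4 that were tested were Agt (log2 0.03), Retn (-0.63), Nnat (-1.32) and Car3 (-1.71), with a median of -0.97. Of them 0 were called by edgeR, 1 was lower at an unadjusted p under 0.05 and 1 lower with DESeq2. Which cells their transcripts came from was not tested, so the median is no measure of white fat.

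Over 19 tested paralogs of the 10 genes the median sham difference was -0.04 and edgeR called 0 (2 higher and 1 lower at an unadjusted p under 0.05, 1 lower with DESeq2). Cox8a, the widely expressed relative of Cox8b, had a log2 difference of 0.00 ± 0.11, Fabp5 one of -0.08 ± 0.16 and Ucp2 one of 0.14 ± 0.26.

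**Figure D3:**
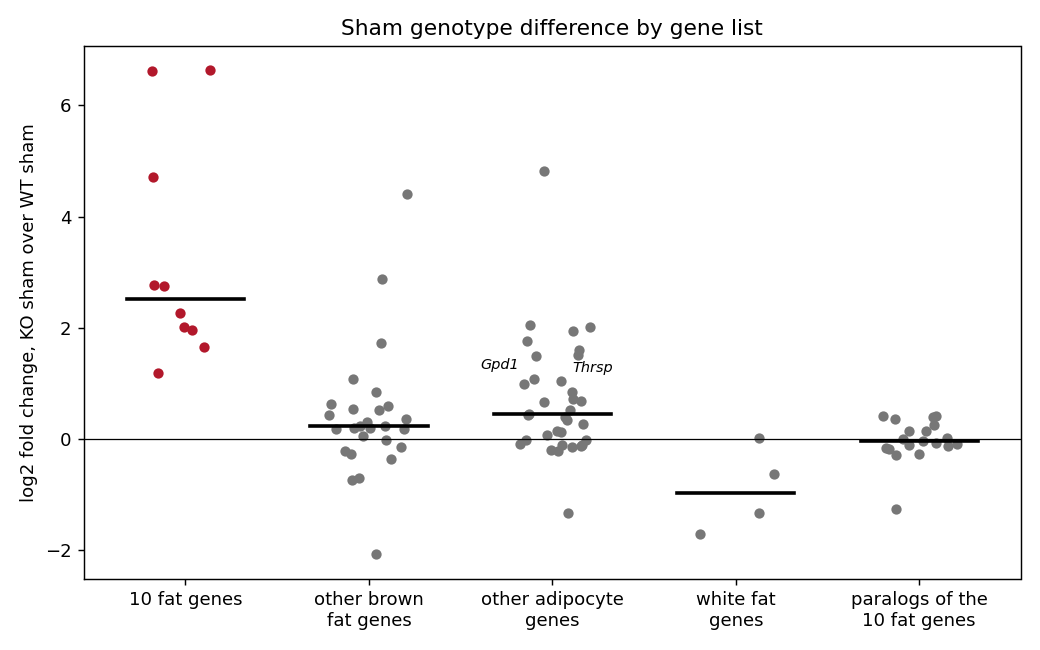
Log2 fold change of knockout sham over wild-type sham (y axis) for each tested gene of 5 lists (x axis), 1 point per gene, spread sideways for legibility, with lines at list medians. Medians are 2.51 for the 10 fat genes, which this contrast picked, 0.24 for other brown fat genes, 0.45 for other adipocyte genes, -0.97 for white fat genes and -0.04 for paralogs; Gpd1 and Thrsp are the 2 points outside the 10 fat genes that passed the test.

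After injury in the knockout, 18 of the 65 other fat genes fell and 1, Nnat, rose (edgeR), where 10.9% of all tested genes were called. Thrsp fell by 1.84 on the log2 scale (SE 0.17, edgeR adjusted p = 5.54e-06), Gpd1 by 1.35 (adjusted p = 0.00029), the elongase Elovl6 by 0.98 (adjusted p = 0.00228) and fatty acid synthase, Fasn, by 0.93 (adjusted p = 0.00659). Slc36a2, Pank1, Kcnk3 and Pdk4 of the brown fat list fell by 0.57 to 1.08. Of the general adipocyte list 13 of 34 fell and none rose (2 higher at an unadjusted p under 0.05, 1 higher with DESeq2), with a median of -0.67 against -0.01 for all genes.

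Between injured genotypes, a contrast that did not pick the genes, Ucp1 was the 1 of 10 that passed the test, where 2.20% of all tested genes were called. It was higher in 3 of 3 knockout libraries, by 2.88 ± 0.57 on the log2 scale (edgeR adjusted p = 0.0117). The call was lost without knockout injured replicate 1, the library with most Ucp1 (log2 2.25, adjusted p = 0.0828), and without wild-type injured replicate 1 (adjusted p = 0.0725) or 2 (0.0797), while the value stayed between 2.25 and 3.27 without any 1 library. Elovl3 (2.25 ± 0.80, adjusted p = 0.208) and Cidea (1.09 ± 0.48, adjusted p = 0.336) did not overlap between genotypes either but missed the threshold. DESeq2 called Elovl3 too (adjusted p = 0.0429).

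The remaining 7 genes ranged from -1.29 (Plin1) to 0.41 (Ces1d) with adjusted p of 0.625 to 0.978. Adipoq, at 3.28 ± 2.16 CPM in injured knockout and 4.14 ± 1.90 CPM in injured wild type, was among them (-0.33 ± 0.68, adjusted p = 0.898). The knockout was higher without overlap for 3 of the 10, against 16.0% of tested genes and 1 of 65 other fat genes, Thrsp. Cox8b was at -0.49 ± 1.04, and 20 of 27 tested genes of the other brown fat list were below 0, with a median of -0.18. Of those 65, 0 rose (1 higher at an unadjusted p under 0.05 and 1 with DESeq2) and 2 fell in edgeR, Slc36a2 (-0.97 ± 0.13, adjusted p = 0.000515) and Elovl6 (-0.97 ± 0.17, adjusted p = 0.00574). This contrast shares the injured knockout libraries with the injury contrast that picked the genes.

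**Figure D4:**
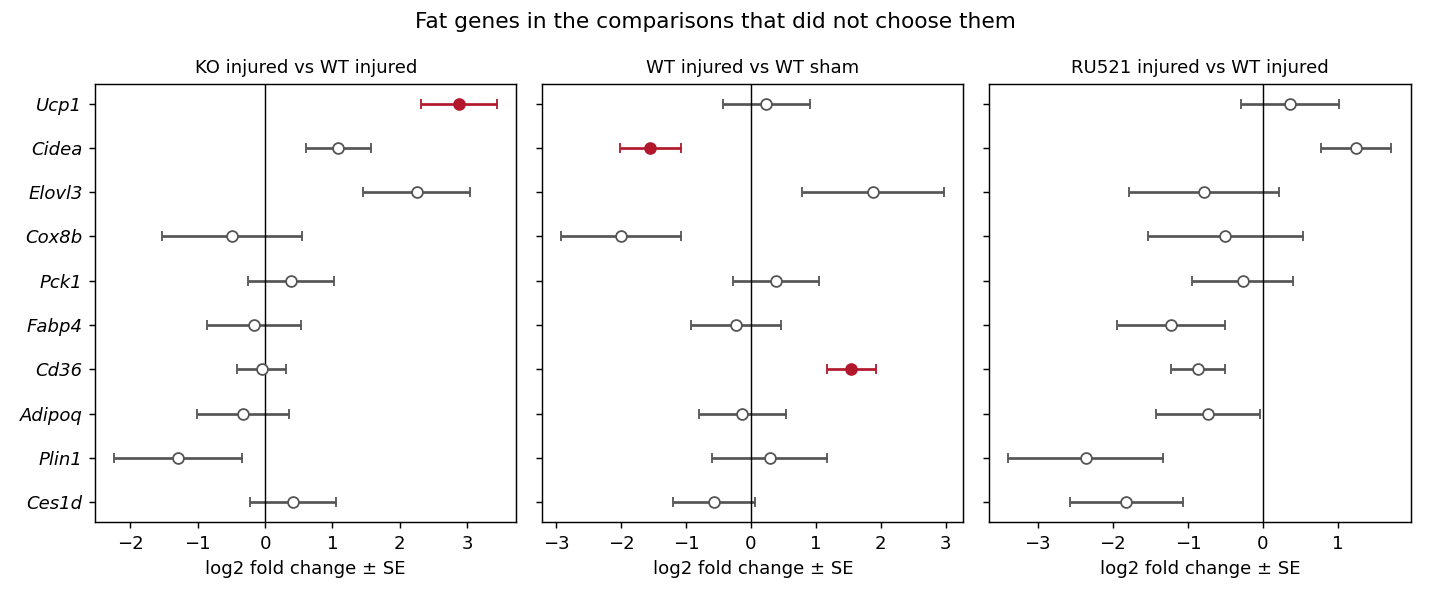
Log2 fold changes with SE (x axis) of the 10 fat genes (y axis) in the 3 comparisons that did not pick them. The injured genotype and wild-type injury comparisons share libraries with contrasts that did. Filled red points passed edgeR's test at an adjusted p under 0.05 and open points did not. The filled points are Ucp1 between injured genotypes (2.88) and Cidea (-1.55) and Cd36 (1.55) for injury in wild type.

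For injury in wild-type ganglia edgeR called 2 of the 10 genes, where 16.6% of all tested genes were called. This contrast shares the wild-type sham libraries with the sham genotype contrast that picked the genes. Its values and p-values for these genes are therefore not independent of the picking. Cidea fell by 1.55 on the log2 scale (SE 0.47, edgeR adjusted p = 0.0342), from 3.75 ± 2.01 to 1.28 ± 0.743 CPM, with overlap through wild-type sham replicate 2. Cd36 rose by 1.55 ± 0.37 (adjusted p = 0.0116), from 12.5 ± 6.04 to 36.4 ± 4.12 CPM without overlap. Both calls were lost at folds of similar size without sham replicate 1 (Cidea -1.30, adjusted p = 0.121, and Cd36 1.33, adjusted p = 0.0542) and without sham replicate 3 (-1.35 and 0.121, 1.39 and 0.0586). Without both, which leaves replicate 2 as the single wild-type sham library, the log2 values were -0.11 and 0.95. Cidea also missed the threshold without wild-type injured replicate 2 (0.0851) or 3 (0.129) and in a fit of these groups alone (0.164).

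Ucp1 did not differ detectably with injury in wild type (0.24 ± 0.67, edgeR adjusted p = 0.842), at levels near 1 CPM. Fabp4 and Adipoq changed direction with sham replicate 2, from -0.23 and -0.13 with it to 1.46 and 1.41 without it, and Fabp4 then passed the test (adjusted p = 0.0433). In wild type, macrophage markers moved with Cd36. The summed level of 10 of them ran from 334 to 991 CPM in wild-type sham and from 2504 to 2686 CPM in wild-type injured libraries. In the knockout they did not, since this sum was 674 to 948 CPM after sham surgery and 2883 to 3457 CPM after injury. Mean Cd36 there went from 50 CPM down to 35.3 CPM. The part of macrophages in the Cd36 values was not tested.

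RU521 in injured wild-type ganglia changed 0 of the 10 genes in edgeR, where 9.58% of all tested genes were called. At an unadjusted p under 0.05 Cidea was higher and Cd36, Plin1 and Ces1d were lower, and DESeq2 called Cidea alone (log2 1.26, adjusted p = 0.0406). Fitted values in edgeR were 1.24 ± 0.47 for Cidea (adjusted p = 0.111), -1.82 ± 0.75 for Ces1d (0.141), -0.87 ± 0.36 for Cd36 (0.143) and -2.36 ± 1.03 for Plin1 (0.163). Cd36 passed the test without RU521 replicate 2 (-1.24, adjusted p = 0.0433), and without the filter on low counts 5 of the 10 passed. The median was -0.76 over the 10 genes and -0.03 over all genes. Endothelial markers were also lowest here, at 198 to 207 CPM summed over 10 genes against 315 to 336 CPM in injured wild type, and their part in the Cd36 and Fabp4 values was not tested.

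Markers of tissues that neighbour the ganglion were read beside the sham contrast. Of 17 tested skeletal muscle genes 1 was above 0 on the log2 scale, with a summed level of 45.0 to 447 CPM in knockout sham and 42.4 to 6504 CPM in wild-type sham libraries. Actin of skeletal muscle, Acta1, stood at 4.43, 122 and 3.67 CPM in knockout sham and 5.49, 1541 and 192 CPM in wild-type sham libraries. In knockout sham replicates 1, 2 and 3 the summed muscle level was 45.8, 447 and 45.0 CPM and Ucp1 stood at 43.1, 72.8 and 81.5 CPM. The part of carried-over tissue in the fat gene values was not tested. The summed level of 11 bone and cartilage genes was 43.9 to 48.8 CPM in knockout sham and 43.7 to 52.6 CPM in wild-type sham libraries.

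Blood and vessel markers had higher summed levels in knockout sham libraries than in wild-type sham replicates 1 and 3. In sham knockout libraries the 7 red cell genes summed to 4684 to 6685 CPM (wild-type sham 1215 to 6589), 10 granulocyte precursor genes to 2269.7 to 3356 CPM (789.9 to 2442), 10 macrophage genes to 674 to 948 CPM (334 to 991) and 10 endothelial genes to 279 to 334 CPM (235 to 321). All 7 red cell, 10 of 10 granulocyte and 10 of 10 macrophage genes were above 0 on the log2 scale, as were 9 of 10 endothelial genes and 8357 of 18517 tested genes. In each of these lists edgeR called 0. At an unadjusted p under 0.05, 4 red cell, 6 granulocyte, 2 macrophage and 3 endothelial genes were higher. DESeq2 called 2 red cell and 2 granulocyte genes higher and 0 in the macrophage and endothelial lists. The upper wild-type values came from replicate 2. Sensory neuron markers were below 0 for 11 of 11 genes (median -0.40, summed level 5939 to 7949 CPM against 6412 to 9891 CPM), with 0 called by edgeR, 1 lower at an unadjusted p under 0.05 and 0 with DESeq2. Of 10 fibroblast markers 7 were below 0 (summed level 1605 to 1872 CPM against 1553 to 3329 CPM) and Col1a1 fell by 1.84 on the log2 scale (SE 0.34, edgeR adjusted p = 0.0499). The part of these tissues in the fat gene values was not tested.

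**Figure D5:**
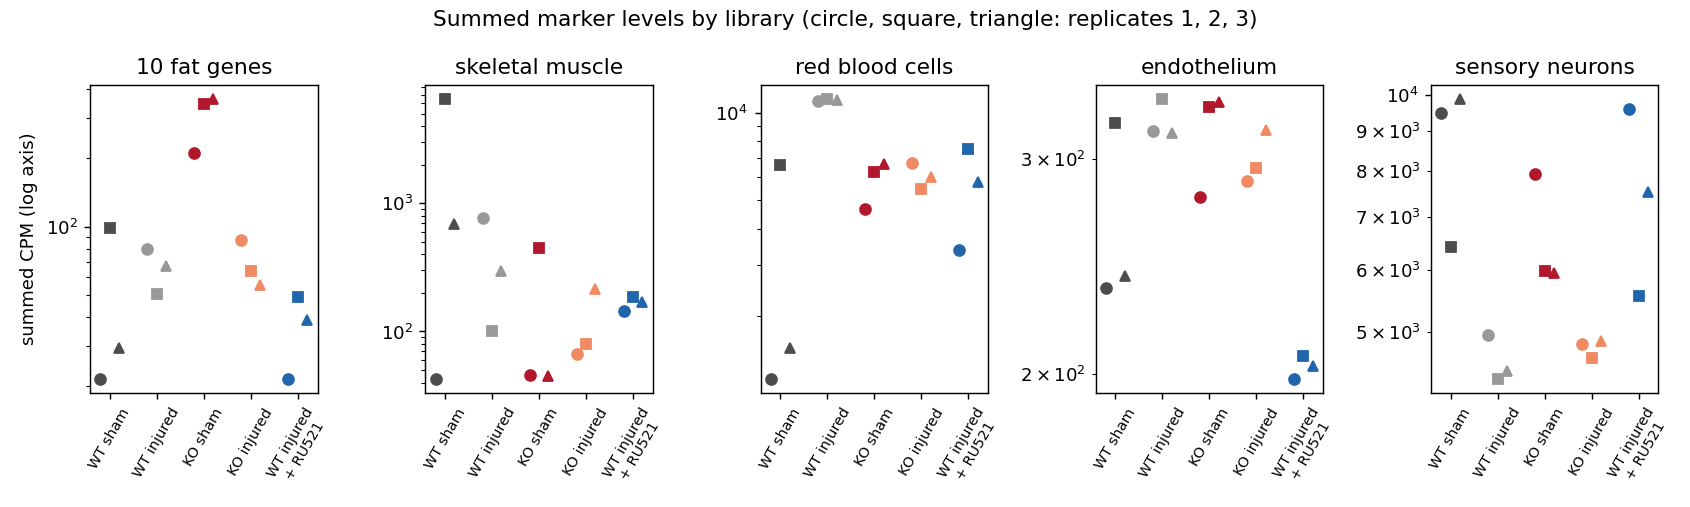
Summed CPM (y axes, logarithmic) of the 10 fat genes and of 4 marker lists in each library by group (x axes). The fat gene sum is 211 to 363 CPM in knockout sham and 21.5 to 99.0 CPM in wild-type sham libraries, while skeletal muscle markers peak at 6504 CPM in wild-type sham replicate 2.

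Transcripts of the sex chromosomes were also unequal between genotypes. Xist, expressed from the inactive X of females, stood at 62.0 to 101 CPM in all 6 knockout libraries, at 131 CPM in wild-type sham replicate 2, at 12.5 CPM in sham replicate 3 and at 0.250 to 3.66 CPM in the other 7 wild-type libraries. Ddx3y, a Y-linked gene, stood at 69.6 to 87.5 CPM in wild-type libraries other than sham replicate 2 (10.7 CPM), at 42.0, 0.837 and 0.763 CPM in knockout sham and at 12, 5.22 and 15.2 CPM in knockout injured libraries. Genotype and the sexes present therefore cannot be told apart in most libraries. Among the libraries with high Xist, Ucp1 stood at 0.0623 CPM in wild-type sham replicate 2, 2.25 to 9.83 CPM in knockout injured and 43.1 to 81.5 CPM in knockout sham libraries. The part of sex in these values was not tested.

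Over all 15 libraries the genes whose log2 levels most resembled the mean standardised level of the 10 were Lpl (Pearson r = 0.96), Eci1 (0.91), Mlxipl (0.91), Gpihbp1 (0.90), Ech1 (0.87), Cidec (0.87), Gpd1 (0.86), Sfrp5 (0.84), Apoc1 (0.83) and Aspg (0.83), followed by Plin5, Fabp7, Agpat2, Pdk4 and Igkv10-94 (0.82 to 0.80). Gpihbp1 anchors lipoprotein lipase on capillaries, and Eci1 and Ech1 are enzymes of fatty acid oxidation. Of these 15 genes 7 were in the fat lists, which hold 60 of the 15413 candidates. That count is a description and no test, since the 10 genes were picked for knockout sham levels. The fat lists, too, were written with earlier results of these data known. The points share the 3 knockout sham libraries. Over the 12 other libraries r was 0.82 for Lpl, 0.79 for Cidec, 0.78 for Eci1, 0.75 for Ech1 and 0.67 for Mlxipl, but 0.45 for Gpihbp1, 0.28 for Gpd1 and 0.03 for Apoc1. Among the 10 genes themselves the median pairwise r was 0.79 over 15 libraries and 0.26 over the 12 libraries outside knockout sham, where it ran from -0.66 to 0.92 and 32 of 45 pairs were above 0.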

How the data were processed

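Raw counts per gene symbol were deposited by the authors for 15 ganglion and 12 retinal libraries. The tools named are Trim Galore and STAR and the build is GRCm38 (mm10), per the submitters' processing notes. For ganglia, featureCounts 2.0.1 was run on an Ensembl annotation, keeping primary read pairs of mapping quality 10 or more, over exons and without strand, per the file headers. Gene length in the deposited ganglion table (another column, in bp) gave CPM per kb. The counter of retinal reads is not given here, and an unnamed line holding 50% of that file was left out. Retinal counts entered no test.

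All 15 ganglion libraries were fitted with edgeR (4.0.16, R 4.3.3) using TMM factors (filterByExpr with minimum count 10 and total 15, robust quasi-likelihood, Benjamini-Hochberg over 18517 genes). Totals were 14813365 to 22414750 counts. Members and lists were chosen with earlier results of these data known. Named genes are the 10 fat genes, up to 4 called genes per list and comparison by smallest p (where none passed, the 2 most abundant), and the 15 genes most like the fat genes by log2(CPM + 0.5) with a mean of at least 1 CPM. Others, such as the fat regulators, the white fat genes and the sex-linked genes, were named from the lists after their values were seen. Alternatives were DESeq2 1.42.0, its size factors within edgeR, all genes without a count filter, fits of the compared groups alone, a replicate block, leaving out each library, and leaving out wild-type sham replicates 1 and 3. The fit was tested on simulated data.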

Additional observations from a re-analysis of the deposited data

Results flagged for a closer look

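Injury had different effects in the 2 genotypes for 2 of the 65 other fat genes (edgeR interaction term). For Gpd1 the effect in the knockout minus that in wild type was -1.61 ± 0.26 (log2, adjusted p = 0.00783, where 0.448% of all tested genes were called), from 138 to 54 CPM in knockout and from 64.8 to 77.5 CPM in wild type. For Slc36a2, an amino acid transporter of the brown fat list, it was -0.96 ± 0.18 (adjusted p = 0.0316), with a fall in the knockout (-0.57) and a rise in wild type (0.39).

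Of the 10 fat genes, 3 had counts above the floor in the picked retinal ganglion cells, which the comparisons above do not use. Cidea had counts in 7 of 12 libraries, with 21, 104 and 534 in wild type with PBS, 0, 1159 and 0 in knockout with PBS, 36, 91 and 99 in knockout with IFNγ and 0 in wild type with IFNγ. Elovl3 reached 51 counts and Cd36 136 counts, each in 1 library and at 0 in the other 11. Ucp1 had 3 counts in 1 library, Plin1 had 1, and Cox8b, Pck1, Fabp4, Adipoq and Ces1d had 0.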

How the results depend on the processing

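DESeq2's size factors in edgeR moved no count of calls by over 1.5 times. Without the low count filter 596 genes and 15 other fat genes were called between sham genotypes, 711 genes and 2 of the 10 between injured genotypes, 5 of the 10 with RU521, and 423 genes and 12 other fat genes for the interaction. DESeq2 called 259 and 12, 791 and 2, 2892 genes and 1 of the 10 with RU521, and 295 and 4 in that order, with 29 other fat genes for injury in the knockout and 14 for injury in wild type. A fit of only the groups compared called 2 genes and 0 other fat genes between sham genotypes, 4102 and 37 for injury in the knockout, 1877 and 6, with 2 of the 10, between injured genotypes, and 1702 and 4, with 1 of the 10, for injury in wild type. Without wild-type sham replicates 1 and 3, which leaves 1 wild-type sham library assumed to vary like the other groups, 1371 genes and 11 other fat genes were called between sham genotypes, 1586 genes and 1 of the 10 for injury in wild type, and 1098 and 10 for the interaction, and Adipoq turned to -0.03 between sham genotypes, Pck1 to -0.36 and Plin1 to -0.89 for injury in wild type. The cause of these shifts was not tested.

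Replicate numbers pair no samples here, since same-numbered libraries deviated together (r over 0.1) in 2 of 15 pairs and correlated best with their own number in 10 of 30 cases. With the replicate block 71 genes and 5 other fat genes were called between sham genotypes, 130 genes for the interaction and 1 of the 10, Cd36, with RU521, and Adipoq turned to 0.14 for injury in wild type.

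With each library left out in turn, calls ran from 2 to 974 genes and 0 to 17 other fat genes between sham genotypes, from 869 to 1388 and 9 to 14 for injury in the knockout, from 194 to 293 genes and 0 to 1 of the 10 between injured genotypes, from 1240 to 6513, 3 to 30 and 0 to 4 of the 10 for injury in wild type, from 476 to 2727, 3 to 11 and 0 to 1 with RU521, and from 37 to 666 and 1 to 12 for the interaction. Log2 values that changed sign ran, between injured genotypes, from -1.05 to 0.86 for Pck1, -0.95 to 0.14 for Fabp4, -0.16 to 0.03 for Cd36, -0.99 to 0.06 for Adipoq and -0.12 to 0.97 for Ces1d. For injury in wild type they ran from -0.24 to 0.81 for Ucp1, -2.57 to 0.36 for Cox8b, -0.08 to 0.95 for Pck1, -0.71 to 1.46 for Fabp4, -0.61 to 1.41 for Adipoq, -0.33 to 1.77 for Plin1 and -1.14 to 0.54 for Ces1d, and with RU521 from -0.64 to 0.20 for Pck1. The knockout injury differences of all 10 fat genes kept their sign in every alternative run. So did their sham differences, except that Adipoq turned to -0.03 without wild-type sham replicates 1 and 3. Levels under 0.131 CPM rest on fewer than 3 counts.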

Other observations

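Cidea lies 298 kb from Ptpn2 on chromosome 18. Among 21 tested genes within 1 Mb of Ptpn2, Cidea included, Cidea had the highest sham log2 difference (2.76), Cep192 the next (0.69), and the median was 0.08. The window was chosen after the values were seen. Cidea itself was picked for a high level in knockout sham ganglia, so its rank follows from the picking.

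With RU521 in injured wild type, 5 of 27 tested genes of the other brown fat list fell and none rose (edgeR; 0 higher at an unadjusted p under 0.05 and 0 with DESeq2), where 9.58% of all tested genes were called (944 higher and 830 lower). Mpzl2 fell by 3.05 on the log2 scale (adjusted p = 0.00551), Ucp3, the muscle uncoupling protein, by 2.36 (adjusted p = 0.0263), the proton channel gene Otop1 by 1.38 (adjusted p = 0.00659) and Slc36a2 by 1.32 (adjusted p = 0.000136). Of 34 general adipocyte genes 2 rose, Trarg1 by 1.24 (adjusted p = 0.00768) and Fasn by 0.72 (adjusted p = 0.0292), and 2 fell, Gpd1 by 0.72 (adjusted p = 0.0232) and Gpam by 0.55 (adjusted p = 0.0402).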
